A study of Mus musculus with 12 samples.

Results

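Cpb2, Serpina7, Cck and Bhlha15 are 4 of the 24078 transcripts in the islet expression table, and they were chosen because their values were higher in Wfs1KO than in Wfs1HZ islets. Islets came from adult male mice of the Wfs1tm1Koks line on a mixed 129S6/SvEvTac and C57BL/6 background, in 3 genotypes of 4 animals each: wild-type (WT), heterozygous (Wfs1HZ) and homozygous (Wfs1KO) for the mutation. In the mutant allele a LacZ cassette takes the place of most of the last coding exon in all tissues, and the exons before it remain. The islets were picked by hand after collagenase digestion and kept overnight in high glucose medium before RNA was taken. Values are RPKM, reads scaled to transcript length and to the number of mapped reads, from 1 library for each animal. Islets are mixed cell clusters, so in such RNA a change in the number of cells of a type and a change in RNA per cell cannot be told apart.

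Wfs1 encodes wolframin, a membrane glycoprotein of the endoplasmic reticulum (ER) that beta cells hold in large amounts, and loss of its function causes Wolfram syndrome with diabetes. Cells that export much protein load the ER heavily, and the unfolded protein response then raises chaperones and degradation factors through the sensors ATF6, IRE1 with XBP1, and PERK with ATF4. Cpb2 encodes plasma carboxypeptidase B, which trims lysines from fibrin and slows clot lysis. Serpina7 encodes thyroxine-binding globulin, a serpin that carries thyroid hormone and does not inhibit proteases. Cck encodes cholecystokinin, a peptide of gut endocrine cells and neurons that stimulates acinar enzyme release and gallbladder contraction. Bhlha15 encodes Mist1, a basic helix-loop-helix transcription factor of acinar, zymogenic and plasma cells and a known XBP1 target, so it is a nuclear regulator of secretory cells and not itself secreted.

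The 4 genes lie on different chromosomes of the mouse genome mm10 (GENCODE M21), and each has a single entry in the table. Cpb2 covers chr14:75242287-75283555 on the plus strand with 11 exons in its largest transcript, and 2 other annotated genes, Gm44482 and Gm18147, overlap it on the same strand. Serpina7 covers chrX:139079257-139085236 on the minus strand with 6 exons. Cck covers chr9:121489824-121495694 on the minus strand with 4 exons, and Bhlha15 covers chr5:144190286-144194441 on the plus strand with 2 exons. The promoter sequences show what the genes have or lack in common at their starts, from 250 bases before to 50 bases after the RefSeq start (GRCm38.p6). They are written 5′ to 3′ on the strand of the gene, and capitals mark the letters of the motifs searched.
Cpb2, chr14:75242037-75242336: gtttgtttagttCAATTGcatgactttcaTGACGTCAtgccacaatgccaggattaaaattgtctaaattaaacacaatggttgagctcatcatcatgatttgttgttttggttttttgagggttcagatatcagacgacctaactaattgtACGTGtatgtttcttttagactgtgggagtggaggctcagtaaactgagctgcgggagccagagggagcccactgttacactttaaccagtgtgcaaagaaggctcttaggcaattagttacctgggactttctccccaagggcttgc
Serpina7, chrX:139085187-139085486: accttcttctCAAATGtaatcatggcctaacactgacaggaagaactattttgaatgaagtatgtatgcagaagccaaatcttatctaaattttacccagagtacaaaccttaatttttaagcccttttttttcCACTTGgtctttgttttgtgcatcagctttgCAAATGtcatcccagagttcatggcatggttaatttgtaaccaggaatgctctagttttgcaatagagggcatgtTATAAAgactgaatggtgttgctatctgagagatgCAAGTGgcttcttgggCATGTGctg
Cck, chr9:121495645-121495944: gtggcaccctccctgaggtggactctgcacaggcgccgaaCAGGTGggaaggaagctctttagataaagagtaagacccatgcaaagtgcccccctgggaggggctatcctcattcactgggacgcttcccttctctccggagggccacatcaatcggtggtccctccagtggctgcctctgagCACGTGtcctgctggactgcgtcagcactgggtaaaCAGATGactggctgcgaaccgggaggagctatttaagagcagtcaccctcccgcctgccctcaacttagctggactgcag
Bhlha15, chr5:144190036-144190335: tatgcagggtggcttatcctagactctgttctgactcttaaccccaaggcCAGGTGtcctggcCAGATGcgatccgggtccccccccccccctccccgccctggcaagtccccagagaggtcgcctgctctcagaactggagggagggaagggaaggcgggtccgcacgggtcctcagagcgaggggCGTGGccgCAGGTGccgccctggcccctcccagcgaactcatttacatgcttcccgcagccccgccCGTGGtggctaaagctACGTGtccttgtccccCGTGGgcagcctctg

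The motifs were chosen after these promoters had been seen, and each was searched on both strands. The E-box CANNTG, the class of site that helix-loop-helix factors such as Mist1 bind, was found in all 4 promoters, 5 times in Serpina7, 3 times in Cck, 3 times in Bhlha15 and once in Cpb2, and it occurs in 72.3% of the 32851 promoters of the same length. ACGTG, the core letters of XBP1 and ATF6 sites, was found in Cpb2, Cck and Bhlha15, and in 19.6% of all promoters. In Cck it overlaps the E-box CACGTG at position -66. CCACG, letters that end the ER stress element, was found 3 times in Bhlha15 and in none of the other members, against 32.8% of all promoters. The cAMP response element TGACGTCA was found in Cpb2 at -221 and in 1.79% of all promoters, and TATAAA was found in Serpina7 and in 13.6%. CCAAT, which 37.4% of all promoters hold, was in none of the 4 windows. No motif other than CANNTG was present in every member. Serpina7 has 2 starts in the table of promoters, and the window of the first one is shown.

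The libraries differed in depth and in exocrine RNA. The reads behind the values, estimated from the steps of short RNA genes, numbered 2170000 to 9530000 per library; multiples of these numbers also give whole reads, so the depth may be a multiple of the estimate, and the read counts and 3-read values printed here hold only for the estimate itself. Ctrb1, the acinar digestive enzyme chymotrypsinogen B, took 1.16% to 34.0% of the summed RPKM. Wfs1HZ replicate 2 and Wfs1KO replicate 4 stood apart with the least Ctrb1, 6393 and 6079 RPKM, against 41103 to 258070 RPKM in the other animals, and with high Gcg, the alpha cell hormone glucagon (155286 and 217165 RPKM), which only WT replicate 2 matched among the others (182240 RPKM). Wfs1 itself was 28.6 ± 3.83 RPKM (SD, n = 4) in WT, 11.1 ± 5.59 in Wfs1HZ and 4.40 ± 1.83 in Wfs1KO islets, and every Wfs1KO and every Wfs1HZ animal lay below every WT animal. The Wfs1KO and Wfs1HZ animals overlapped, with 4.69 RPKM in Wfs1HZ replicate 2 against 5.08 and 6.61 RPKM in Wfs1KO replicates 1 and 2. The adjusted p of Wfs1 was 0.0400 for Wfs1KO against WT by limma with Benjamini-Hochberg adjustment. The beta cell marker Mafa was at 0 in 6 or more libraries, while the other beta cell markers, such as Ins2, were present.

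In Wfs1KO islets all 4 genes were higher than in Wfs1HZ islets, the contrast by which they were chosen, and the values are given as a description only. Every Wfs1KO animal lay above every Wfs1HZ animal for 4 of 4 members, as for 0.926% of the 21701 transcripts tested. Against WT the Wfs1KO animals lay wholly above for 2 members, Cpb2 and Serpina7, as did those of 1.75% of all transcripts. The WT animals had no part in the choice, but the Wfs1KO and Wfs1HZ animals did. Bhlha15 was the 1 member with every Wfs1HZ animal below every WT animal, as for 1.08% of transcripts. Wfs1KO replicate 4 was the lowest Wfs1KO animal for all 4 members.

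**Figure D1:**
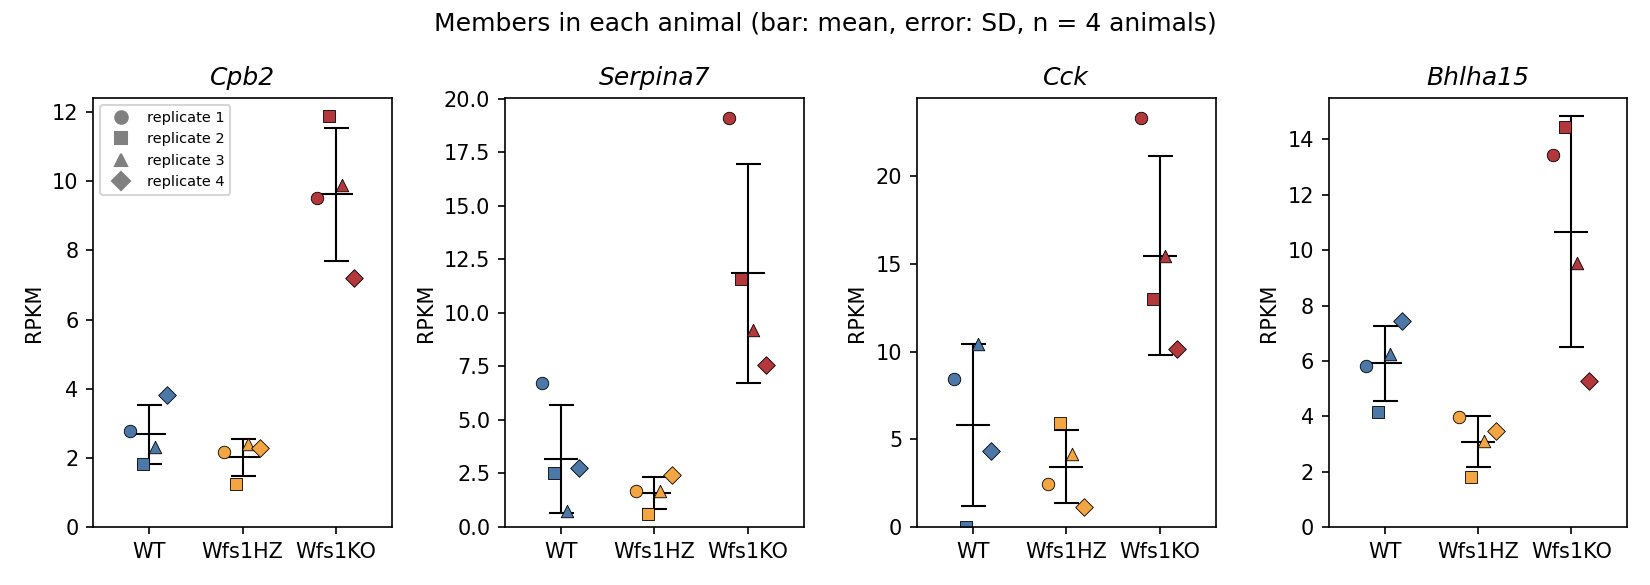
RPKM of each member in each animal, by genotype, with bars at the mean and error bars of 1 SD (n = 4 animals per genotype). Marker shapes give the replicate number, which is not known to pair animals. The Wfs1KO animals lie above all others for Cpb2 and Serpina7, and the diamond, Wfs1KO replicate 4, falls among the WT animals for Cck and Bhlha15.

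Cpb2 was 2.78, 1.81, 2.32 and 3.81 RPKM in the WT animals, 2.17, 1.23, 2.39 and 2.29 RPKM in Wfs1HZ, and 9.52, 11.9, 9.90 and 7.19 RPKM in Wfs1KO. The lowest Wfs1KO animal lay well above the highest WT animal, and the WT and Wfs1HZ animals overlapped. The mean in Wfs1KO was 9.62 ± 1.92 RPKM (SD, n = 4), 3.59 times the WT mean of 2.68 ± 0.851 and 4.76 times the Wfs1HZ mean of 2.02 ± 0.534. On the log2(RPKM + 0.1) scale, where the change of low genes is understated, Wfs1KO exceeded WT by 1.83 (SE 0.27). This was the smallest adjusted p among the members, 0.197 by limma, and the exact permutation p was 0.0286, the smallest that 4 against 4 animals can give. The Wfs1KO animals took part in the choice of the genes, so these p-values are not independent of it. Approximate reads behind the values were 4.36 to 39.4 in WT and Wfs1HZ libraries and 38.3 to 148 in Wfs1KO libraries. Wfs1HZ differed from WT by -0.38 (SE 0.40, adjusted p = 1.00 by limma).

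Serpina7 was 6.72, 2.54, 0.72 and 2.76 RPKM in the WT animals, 1.67, 0.58, 1.66 and 2.43 RPKM in Wfs1HZ, and 19.1, 11.6, 9.19 and 7.54 RPKM in Wfs1KO. All Wfs1KO animals lay above all others, though the lowest of them, at 7.54 RPKM, was close to WT replicate 1. The Wfs1KO mean of 11.9 ± 5.11 RPKM (SD, n = 4) was 3.72 times the WT mean of 3.19 ± 2.53 and 7.48 times the Wfs1HZ mean of 1.59 ± 0.761, the largest ratio to Wfs1HZ among the 4 genes. Wfs1KO exceeded WT by 2.14 on the log2 scale (SE 0.58, adjusted p = 0.835 by limma, exact permutation p = 0.0286). The spread among WT animals was wide, with a coefficient of variation of 79.4%. Serpina7 in Wfs1HZ replicate 2, 0.58 RPKM, was about the value of 3 reads in that library, 0.564 RPKM, at the estimated depth. Wfs1HZ differed from WT by -0.74 (SE 0.68, adjusted p = 1.00 by limma), by -0.27 without WT replicate 1 and by -1.29 without WT replicate 3.

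Cck was 8.43, 0, 10.5 and 4.31 RPKM in the WT animals, 2.46, 5.95, 4.14 and 1.16 RPKM in Wfs1HZ, and 23.3, 13.0, 15.5 and 10.1 RPKM in Wfs1KO. Cck was the member with the highest mean in Wfs1KO islets, 15.5 ± 5.65 RPKM (SD, n = 4), against 5.80 ± 4.63 in WT and 3.43 ± 2.08 in Wfs1HZ. The value of 10.1 RPKM in Wfs1KO replicate 4 lay below the 10.5 RPKM of WT replicate 3, so the groups overlapped. In WT replicate 2 Cck is listed at 0, where 3 reads would give 0.259 RPKM, in a library of 8870000 estimated reads. Wfs1KO exceeded WT by 2.57 on the log2 scale (SE 1.30, adjusted p = 0.879 by limma, exact permutation p = 0.0571). The 0 in WT replicate 2 enters as -3.32 on this scale, so the difference depends on the pseudocount. It was 1.69 with a pseudocount of 1 and 3.40 with 0.01. Without WT replicate 2 the difference was 1.02. The mean RPKM of Wfs1KO was 2.67 times that of WT and 4.51 times that of Wfs1HZ. The difference of Wfs1HZ from WT was 0.27 (SE 1.33, adjusted p = 1.00 by limma), -1.28 without WT replicate 2 and -0.07 without Wfs1HZ replicate 2, so even its direction rests on single libraries.

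Bhlha15 was 5.82, 4.15, 6.23 and 7.45 RPKM in the WT animals, 3.96, 1.81, 3.12 and 3.45 RPKM in Wfs1HZ, and 13.4, 14.4, 9.54 and 5.26 RPKM in Wfs1KO. The Wfs1HZ animals lay below all WT animals, and 3 of the Wfs1KO animals lay above them, while Wfs1KO replicate 4 fell within the WT range. The means were 5.91 ± 1.36 RPKM (SD, n = 4) in WT, 3.09 ± 0.918 in Wfs1HZ and 10.7 ± 4.18 in Wfs1KO. The mean in Wfs1KO was 1.80 times that of WT, the smallest ratio among the members, and 3.46 times that of Wfs1HZ. Wfs1KO exceeded WT by 0.77 on the log2 scale (SE 0.34, adjusted p = 0.879 by limma, exact permutation p = 0.114), and by 1.07 without Wfs1KO replicate 4 (adjusted p = 0.334). The difference of Wfs1HZ from WT was -0.94 (SE 0.34, adjusted p = 1.00 by limma, exact permutation p = 0.0286), and this comparison is not independent of the choice either, since the Wfs1HZ animals took part in it.

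Against WT none of the members passed an adjusted p of 0.05 (0 of 4), a call that 0.0138% of transcripts reached in Wfs1KO and 0.0% in Wfs1HZ. At an unadjusted p under 0.05, 3 of 4 members were higher in Wfs1KO than in WT, Cpb2, Serpina7 and Bhlha15, against 5.64% of all transcripts in either direction. In the comparison of Wfs1HZ with WT the 1 member past an unadjusted p of 0.05 was Bhlha15, against 2.35% of all transcripts. The median of the 4 differences was 1.99 for Wfs1KO against WT and -0.56 for Wfs1HZ against WT, and the medians of all transcripts were 0.07 and 0.04. Wfs1KO and Wfs1HZ animals took part in the choice, so neither comparison with WT is independent of it. The shares and medians of all transcripts are given beside the members as a description only. Against Wfs1HZ the 4 differences were 2.22 for Cpb2, 2.88 for Serpina7, 2.30 for Cck and 1.71 for Bhlha15. Without Wfs1HZ replicate 2 they were 2.01, 2.50, 2.63 and 1.48 in the same order, and without Wfs1KO replicate 4 the differences of Wfs1KO from WT were 1.96, 2.32, 2.74 and 1.07. Both comparisons with WT share the same WT animals. By mean RPKM the order was Bhlha15, Cck, Serpina7, Cpb2 in WT, Cck, Bhlha15, Cpb2, Serpina7 in Wfs1HZ and Cck, Serpina7, Bhlha15, Cpb2 in Wfs1KO islets. In each genotype the animals of neighbours in this order overlapped.

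**Figure D2:**
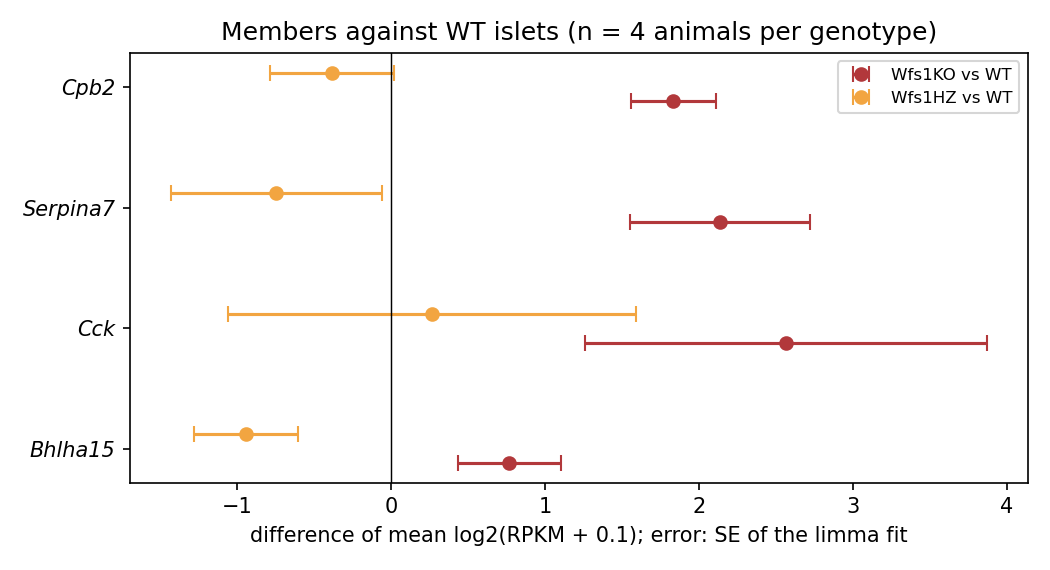
Difference of mean log2(RPKM + 0.1) from WT for each member, for Wfs1KO and for Wfs1HZ islets, with error bars of 1 SE of the limma fit (n = 4 animals per genotype). The Wfs1KO points lie between 0.77 and 2.57, and 3 of the Wfs1HZ points lie below 0; Cck has the widest error, 1.30 and 1.33.

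The members differed in how they followed exocrine and endocrine RNA. The Wfs1KO animals formed a separate cluster in the values of Cpb2, and lay above all others in Serpina7 without a clear gap. Correlations were therefore taken over the 8 WT and Wfs1HZ animals. With Ctrb1, Cpb2 had a Pearson r of 0.68 (exact permutation p = 0.0670, adjusted over the 4 members 0.263) and a Spearman rho of 0.50 (exact permutation p = 0.216). Bhlha15 had an r of 0.57 with Ctrb1 (exact permutation p = 0.132, adjusted 0.263; rho 0.40, p = 0.327) and Serpina7 an r of 0.40 (exact permutation p = 0.322, adjusted 0.429; rho 0.19, p = 0.665). Cck had an r of -0.11 (exact permutation p = 0.732, adjusted 0.732; rho -0.07, p = 0.882). None of the 4 relations passed the adjustment. Without the 2 animals farthest from the Ctrb1 median, r was 0.50 for Cpb2, 0.44 for Bhlha15, -0.54 for Serpina7 and 0.58 for Cck. Without Wfs1HZ replicate 2, the library poorest in Ctrb1 among these animals, r was 0.15 for Cpb2, -0.14 for Bhlha15 and -0.23 for Serpina7. Without Wfs1HZ replicate 4, the library richest in Ctrb1, r was 0.82, 0.82 and 0.39 in the same order. Over these 8 animals the values thus depend on which libraries are kept. With the genotype means removed, over all 12 animals, r with Ctrb1 was 0.69 for Cpb2, 0.73 for Bhlha15, 0.35 for Serpina7 and -0.01 for Cck, with exact permutation p-values within genotype of 0.0224, 0.0446, 0.198 and 0.937. Adjusted over the 16 relations of the members described next, these became 0.0511, 0.0714, 0.264 and 0.937.

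Wfs1KO replicate 3 and Wfs1KO replicate 4 differed in Ctrb1 from 220883 to 6079 RPKM, and Cpb2 in the same animals was 9.90 and 7.19 RPKM, both above every WT and Wfs1HZ animal. In these animals Serpina7 was 9.19 and 7.54 RPKM, Cck 15.5 and 10.1 RPKM and Bhlha15 9.54 and 5.26 RPKM. For Cck and Bhlha15 the value of Wfs1KO replicate 4 lay within the WT range. WT replicate 4 and Wfs1HZ replicate 4, with 94362 and 258070 RPKM of Ctrb1, had 3.81 and 2.29 RPKM of Cpb2. Ctrb1 itself overlapped between the genotypes, with 68107 ± 27249 RPKM in WT, 101709 ± 109108 in Wfs1HZ and 83216 ± 94441 in Wfs1KO (SD, n = 4). With Ctrb1 as a covariate the difference of Wfs1KO from WT was 1.90 for Cpb2, 2.14 for Serpina7, 2.77 for Cck and 0.89 for Bhlha15. The part of exocrine RNA in the members' values was not tested. The 19 acinar markers in the table summed to 64414 to 142997 RPKM in WT, 11215 to 362903 in Wfs1HZ and 11374 to 339957 in Wfs1KO, and none was at 0 in 6 or more libraries.

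The members were also set beside endocrine RNA. With Ins2, which encodes insulin, Cpb2 had an r of 0.88 over the 8 WT and Wfs1HZ animals (exact permutation p = 0.000248) and a rho of 0.95 (exact permutation p = 0.00114). Adjusted over the 16 relations of the 4 members with Ctrb1, Ins2, Gcg and the mean of the ATF6 and XBP1 targets, these became 0.00397 and 0.0183, and no other relation over the 8 animals passed. Without the 2 animals farthest from the Ins2 median r was 0.61. The r of Bhlha15 with Ins2 over the 8 animals was 0.58, and 0.01 without the 2 farthest. The Ins2, Gcg and target relations were added after the values had been seen. With the genotype means removed, over all 12 animals, r with Ins2 was 0.88 for Cpb2, 0.71 for Serpina7, 0.72 for Bhlha15 and 0.24 for Cck, with exact permutation p-values within genotype of 0.00109, 0.0174, 0.00962 and 0.603, which became 0.0174, 0.0465, 0.0465 and 0.643 after adjustment. With Gcg the same r was -0.74 for Cpb2, -0.60 for Serpina7, -0.79 for Bhlha15 and -0.38 for Cck, with adjusted exact permutation p-values of 0.0465, 0.0714, 0.0465 and 0.317. With the mean of the ATF6 and XBP1 targets it was 0.63 for Cpb2, 0.26 for Serpina7, 0.76 for Bhlha15 and 0.39 for Cck. The adjusted exact permutation p-values were 0.0714, 0.493, 0.0465 and 0.164. Over the 8 WT and Wfs1HZ animals r with the targets was 0.59, 0.17, 0.55 and 0.40 in the same order. Without the 2 animals farthest from the target median it was 0.22, -0.35, -0.16 and 0.79. With Gcg, r over the 8 animals was -0.71 for Cpb2, -0.58 for Serpina7, -0.42 for Bhlha15 and -0.42 for Cck. Without the 2 animals farthest from the Gcg median it was -0.31, -0.85, 0.02 and 0.40. Ins2, Gcg and Ctrb1 share their libraries and the RPKM sum, so a large share of one lowers the others. Wfs1HZ replicate 2 and Wfs1KO replicate 4 had the lowest Ins2, Ctrb1 and target mean and the highest Gcg of their genotypes. Both were also the lowest of their genotypes for Cpb2, Serpina7 and Bhlha15. The relations with genotype means removed were not run again without single animals, so how far they rest on these 2 libraries was not tested.

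**Figure D3:**
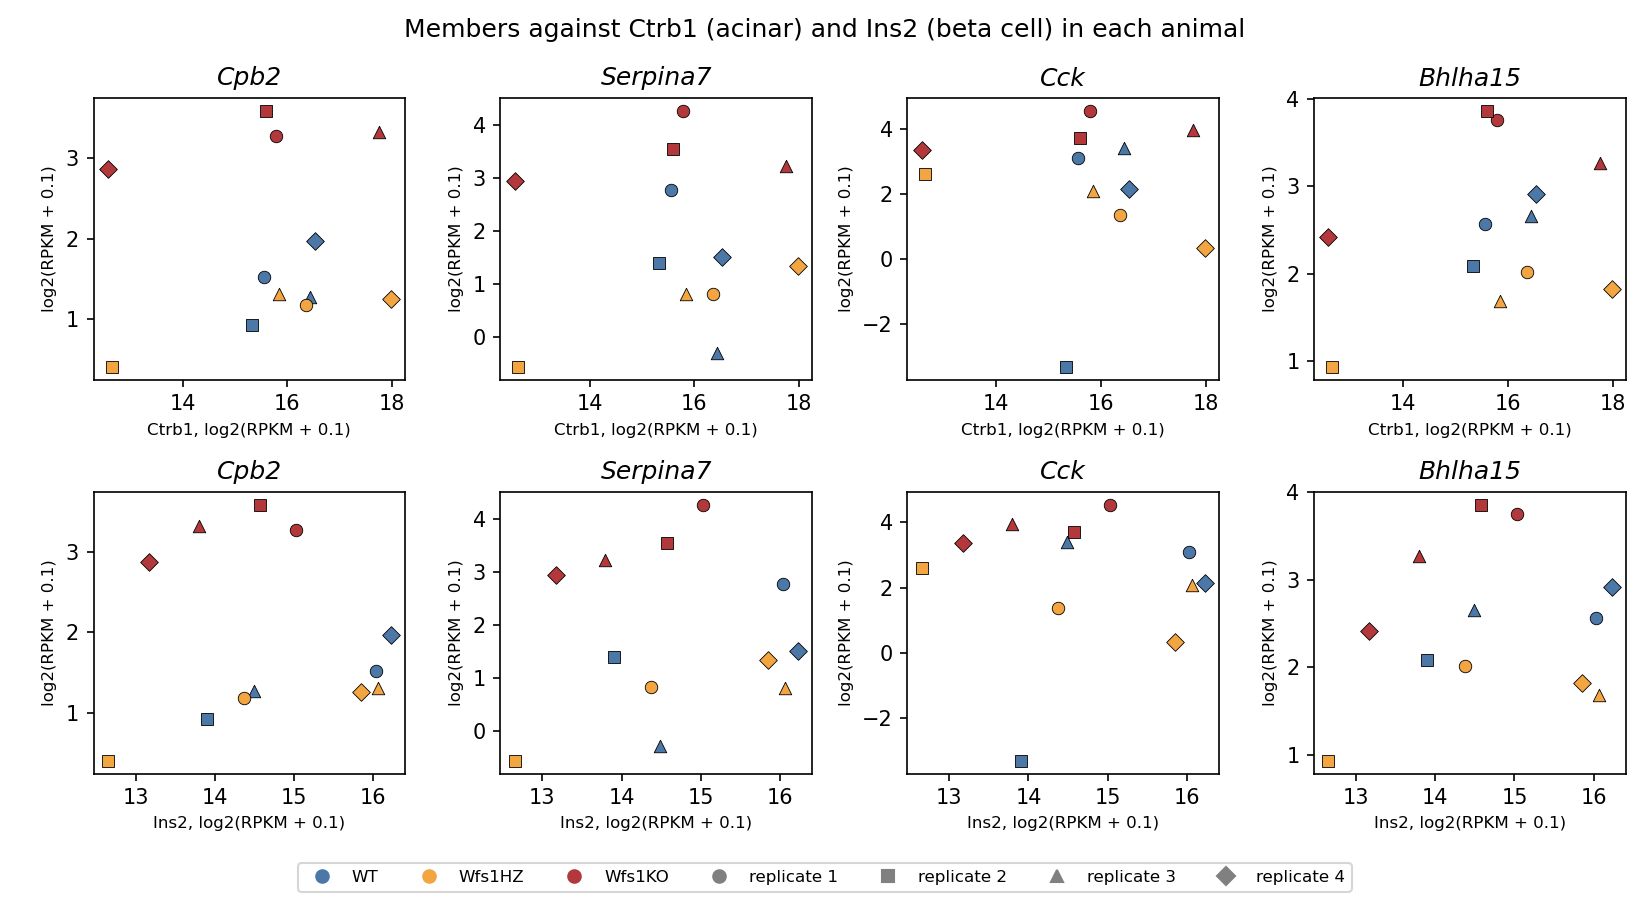
Each member, as log2(RPKM + 0.1), against Ctrb1 (upper row) and Ins2 (lower row) in each of the 12 animals, with colours for genotype and shapes for replicate number. The Wfs1KO animals lie above the others for Cpb2 and Serpina7, with Ctrb1 from 6079 to 220883 RPKM and Ins2 from 9199 to 33525 RPKM, and no Wfs1KO animal reaches the highest Ins2 values; within the WT and Wfs1HZ animals Cpb2 follows Ins2 (r = 0.88).

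Among themselves the members did not all move together within a genotype. With genotype means removed, Cpb2 and Bhlha15 had a Pearson r of 0.83 over the 12 animals, Cpb2 and Serpina7 0.51, and Serpina7 and Bhlha15 0.43. Cck had values of 0.29 with Cpb2, 0.27 with Bhlha15 and -0.14 with Serpina7. These are descriptions across animals that share libraries.

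The transcripts with the most similar pattern were taken from the 13357 with a mean of at least 1 RPKM, by the Pearson r of the log2 values over the 12 animals. For Bhlha15 they included Irak2, a kinase of interleukin receptor signalling (r = 0.94, 0.93 with genotype means removed), and Emilin1, an extracellular matrix glycoprotein (0.94 and 0.89). For Cpb2 they included Fkbp11, a prolyl isomerase of the ER (0.90 and 0.65), and Sprr1a, a small proline-rich protein (0.87 and 0.79). Sprr1a was 44.1 ± 14.6 RPKM in WT, 45.4 ± 21.9 in Wfs1HZ and 239 ± 145 in Wfs1KO (SD, n = 4), and Fkbp11 was 12.5 ± 1.30, 14.4 ± 5.29 and 37.0 ± 14.0 RPKM. For Serpina7 they were Tor2a, a torsin of the ER lumen (0.93 and 0.98), the glycerol-3-phosphate dehydrogenase Gpd1 (0.93 and 0.93) and Hint3 (0.93 and 0.89). For Cck they were the potassium channel subunit Kcne3 (0.88 and 0.85), 4930588N13Rik (0.82 and 0.81) and 2200002D01Rik (0.81 and 0.80).

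Bhlha15 lies downstream of XBP1 in secretory cells, and the ATF6 and XBP1 target list was read beside it. All 15 listed targets had a higher mean log2 value in Wfs1KO than in WT and than in Wfs1HZ islets, against 57.4% and 53.5% of all transcripts. The median difference of the targets was 0.44 from WT against 0.07 for all transcripts, and 0.67 from Wfs1HZ against 0.04. None passed an adjusted p of 0.05 by limma (0 of 15), and at an unadjusted p under 0.05, 6 were higher against WT, where 5.64% of all transcripts reached that call in either direction, and 9 against Wfs1HZ, where 2.45% did. For 3 targets the lowest Wfs1KO animal was higher than the highest WT animal, as for 1.75% of all transcripts. Of these Derl3, a factor of ER-associated degradation, was 7.68 ± 2.52 RPKM in WT, 12.3 ± 5.94 in Wfs1HZ and 24.9 ± 4.84 in Wfs1KO (SD, n = 4). Derl3 differed between Wfs1KO and WT by 1.72 (SE 0.28, adjusted p = 0.270 by limma), and Sdf2l1, an ER chaperone cofactor, by 0.97 (SE 0.32, adjusted p = 0.835). The third, the disulfide isomerase Pdia6, was 80.6 ± 12.0 RPKM in WT and 145 ± 37.4 in Wfs1KO. The most abundant targets, Hspa5, which encodes the ER chaperone BiP, and Hsp90b1 differed from WT by 0.71 (SE 0.36) and 0.41 (SE 0.33). In Wfs1HZ islets 5 of the 15 targets lay above WT, with a median of -0.16. Derl3 and Sdf2l1 were named after their values had been seen.

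**Figure D4:**
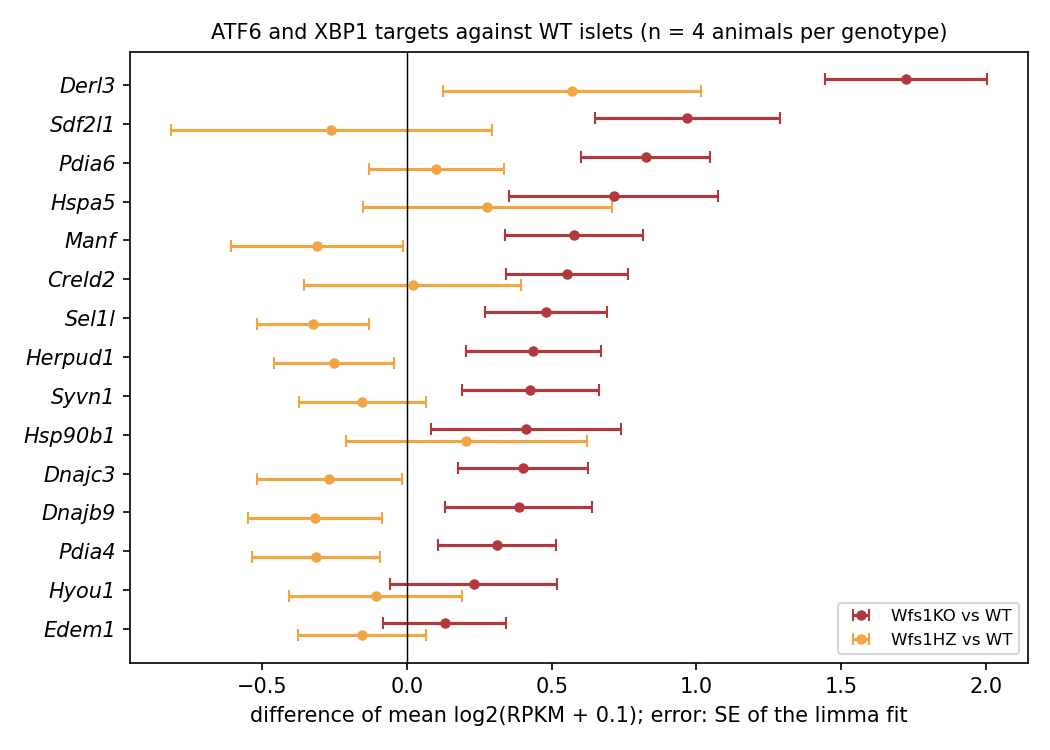
Difference of mean log2(RPKM + 0.1) from WT for the 15 ATF6 and XBP1 targets in Wfs1KO and in Wfs1HZ islets, with error bars of 1 SE of the limma fit (n = 4 animals per genotype). All Wfs1KO points lie above 0, led by Derl3 at 1.72, and the Wfs1HZ points lie on both sides of 0.

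The other lists around the members held differences of both signs. Of all transcripts tested, 57.4% lay above WT in Wfs1KO and 53.2% in Wfs1HZ, and the list counts here and below stand beside these shares. Of the 11 ATF4 targets, 8 lay above and 3 below WT in Wfs1KO, with a median of 0.12. Xbp1 itself was 244 ± 55.3 RPKM in WT and 210 ± 64.8 in Wfs1KO (SD, n = 4; difference -0.25, SE 0.31), and the partners of Mist1, Tcf12, Tcf4 and Tcf3, differed from WT by 0.07, 0.08 and 0.48. Tcf3 was the 1 of these 4 genes with every Wfs1KO animal above every Wfs1HZ animal, as for 0.926% of all transcripts. Of 5 genes known as Mist1 targets in acinar and zymogenic cells, 3 lay above WT in Wfs1KO with a median of 0.24, and Rab3d, a small GTPase of zymogen granules, was 14.5 ± 4.20 RPKM in WT, 10.5 ± 2.92 in Wfs1HZ and 18.8 ± 3.77 in Wfs1KO. The acinar regulators Nr5a2, Ptf1a, Gata4 and Rbpjl had 2 of 4 above WT, with a median of -0.04.

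Around Cpb2, the 10 genes of clotting and plasminogen activation had 7 above and 3 below WT in Wfs1KO, with a median of 0.54. Among all transcripts 57.4% lay above WT. Plaur, the urokinase receptor, was the 1 whose Wfs1KO animals all exceeded the WT animals, as for 1.75% of all transcripts. It was 32.5 ± 5.03 RPKM in Wfs1KO against 14.5 ± 4.36 in WT (SD, n = 4), a difference of 1.21 (SE 0.26, adjusted p = 0.521 by limma). Thbd, which encodes thrombomodulin, the cofactor with which thrombin activates the product of Cpb2, and Procr, the receptor of protein C, differed by 0.52 (SE 0.27) and 0.56 (SE 0.46). Of 14 metallocarboxypeptidases related to Cpb2, 7 lay above and 7 below WT, with a median of -0.08. The pancreatic digestive enzyme Cpb1, whose name is close to that of Cpb2, was 3679 ± 2162 RPKM in WT and 4666 ± 4714 in Wfs1KO, a difference of -0.30 (SE 1.02) on the log2 scale, and its means in RPKM and in log2 values thus differ in sign.

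Around Serpina7, 15 of the 19 clade A serpins in the list passed the filter on low values, and 7 of them lay above and 8 below WT in Wfs1KO, with a median of -0.04. Serpina10, an inhibitor of clotting factors, was the most abundant at 169 ± 34.0 RPKM in WT and 275 ± 128 in Wfs1KO (SD, n = 4; difference 0.59, SE 0.35). The next, Serpina3n, lay the other way, at 128 ± 39.9 RPKM in WT and 79.4 ± 38.0 in Wfs1KO (difference -0.80, SE 0.42). Among 11 genes of thyroid hormone transport and action, 7 lay above and 4 below WT, with a median of 0.17, and Ttr, the other thyroxine carrier of plasma, was 1737 ± 1140 RPKM in WT and 1541 ± 1506 in Wfs1KO. The hepatocyte markers in the table summed to 97.0 to 190 RPKM in WT, 35.9 to 210 in Wfs1HZ and 83.4 to 180 in Wfs1KO, and Apoa1 and Serpina1a among them were at 0 in 6 or more libraries.

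Around Cck, 3 of the 9 genes of its relatives, receptors and processing lay above WT in Wfs1KO, with a median of -0.26. The prohormone convertases Pcsk1 and Pcsk2 differed from WT by -0.89 (SE 0.41) and -0.34 (SE 0.24), the carboxypeptidase Cpe by -0.33 (SE 0.34) and the amidating enzyme Pam by -0.26 (SE 0.21), with none past an adjusted p of 0.05 by limma. The receptors were named outside the rule for list genes. Cckar was 7.76 ± 4.11 RPKM in WT and 5.46 ± 4.05 in Wfs1KO, and Cckbr was lower, 0.515 ± 0.435 and 0.743 ± 0.454 (SD, n = 4). In Wfs1HZ islets 1 of these 9 genes lay above WT, against 53.2% of all transcripts. For Pcsk2 every Wfs1HZ animal lay below every WT animal, 176 ± 46.9 against 267 ± 21.1 RPKM, as for 1.08% of all transcripts. Markers of stromal cells summed to 56.6 to 132 RPKM in Wfs1KO, 12.3 to 357 in Wfs1HZ and 18.6 to 56.9 in WT, and those of endothelial cells to 52.5 to 59.5, 17.6 to 91.2 and 18.5 to 48.5 RPKM. Markers of B and plasma cells, which also use Mist1, summed to 6.31 to 14.8 RPKM in Wfs1KO, 9.71 to 30.2 in Wfs1HZ and 6.42 to 12.0 in WT. The part of these cells in the members' values was not tested.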

How the data were processed

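Islet RNA of 12 male mice, 4 per genotype, was sequenced on a SOLiD instrument after cDNA amplification. The authors mapped reads to mm10 with LifeScope and deposited RPKM per transcript, written with 2 decimals; the annotation and the counting tool are not given in the sources used here. Depth was estimated from short RNA genes under 200 nt, within a search range set with an earlier estimate known, and multiples of it also give whole reads. Floors of 3 reads cover counting error only, and a gene's approximate reads are estimates. Each pair of genotypes was fitted with limma 3.58.1 (R 4.3.3, variance trend) on log2(RPKM + 0.1), with Benjamini-Hochberg adjustment over the 21701 transcripts whose mean reached 0.1 RPKM. Exact two-sided permutation tests were run in Python 3.11.15 with scipy 1.17.1. Replicates are separate animals. The limma step was tested on simulated data.

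The members and gene lists were chosen with earlier results of these data known. Named genes are the 4 members, Wfs1, Ctrb1, up to 4 of the most abundant genes of each list and the 3 transcripts most correlated with each member, of which 1 is not reported here; all other genes, Ins2, Gcg and cell type markers among them, were chosen after values had been seen. Correlations over all 12 animals were replaced by the 8 WT and Wfs1HZ animals. Alternatives tried were pseudocounts of 1 and 0.01, either no filter or one at a mean RPKM of 1, 2 other scalings, a single fit of all animals, sample weights, no variance trend, a replicate block, Ctrb1 as a covariate, and each animal left out.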

Additional observations from a re-analysis of the deposited data

How the results depend on the processing

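The direction of every member's difference between Wfs1KO and WT was the same under the 19 alternatives; against Wfs1HZ the choice of the members fixes the direction. No member passed an adjusted p of 0.05 against WT under any of them. For Wfs1KO against WT the lowest adjusted p was 0.0903 for Cpb2 (sample weights), 0.362 for Serpina7, 0.521 for Cck and 0.334 for Bhlha15, and the highest was 0.925 for Cpb2 (replicate block) and 1.00 for the others. Leaving out each animal in turn, that difference ran from 1.67 to 2.01 for Cpb2, 1.59 to 2.61 for Serpina7, 1.02 to 3.26 for Cck and 0.59 to 1.07 for Bhlha15. For Wfs1KO against Wfs1HZ the difference of Cpb2 was 1.82 with a pseudocount of 1. For Wfs1HZ against WT, Cck was -0.28 with a pseudocount of 1, and from -1.28 (without WT replicate 2) to 0.96 when each animal was left out; it was -0.07 without Wfs1HZ replicate 2. In the same comparison the range was -0.55 to -0.17 for Cpb2, -1.29 to -0.27 for Serpina7 and -1.10 to -0.71 for Bhlha15. Transcripts called between Wfs1KO and WT numbered 3, and 0 with a pseudocount of 1, 1 with all 12 animals in 1 fit, and 0 to 1 with an animal left out. Between Wfs1HZ and WT 0 were called, with 511 at an unadjusted p under 0.05, and 1 without a filter on low values and 2 without a variance trend. Between Wfs1KO and Wfs1HZ 0 were called, with 532 at an unadjusted p under 0.05, and 5 with sample weights. The cause of these changes was not tested.

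With the replicate number as a replicate block, 0 transcripts were called between Wfs1KO and WT, and the differences of the members were as without it (1.83 for Cpb2); it changed no member's call. The deviations of same-numbered animals correlated from -0.281 to 0.337, and not every pair exceeded 0.1. These values cannot tell whether same-numbered animals were paired. With Ctrb1, Cpb2 had an r of 0.87 (adjusted p = 0.0429, exact permutation, 8 animals) and Cck of 0.014 after median-of-ratios scaling; with an animal left out, r ran from 0.15 to 0.82 for Cpb2, -0.23 to 0.62 for Serpina7, -0.51 to 0.14 for Cck and -0.14 to 0.82 for Bhlha15. The 15 ATF6 and XBP1 targets stayed above WT in Wfs1KO under both other scalings, with medians of 0.41 and 0.38. The ATF4 targets against Wfs1HZ had a median of 0.20, and -0.02 after quantile normalization. For the 5 Mist1 targets the median of Wfs1KO against WT was 0.24, and -0.06 after quantile normalization, with 2 of them above WT. At the lowest estimated depth, 2170000 reads, 3 reads on Cck give 1.06 RPKM, and less if the depth is a multiple of the estimate.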
